A study of Rattus norvegicus with 49 samples.

Results

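Thyroid hormone is freed from thyroglobulin inside lysosomes, and the transcripts followed here were those of 9 genes of this pathway, represented by 10 of the 30367 probes and 9 of the 15154 gene symbols on the arrays. They comprised the cysteine proteases cathepsin B, L, K and S (Ctsb, Ctsl, Ctsk and Ctss), the asparaginyl endopeptidase legumain (Lgmn), the aspartic protease cathepsin D (Ctsd), the lysosomal membrane proteins Lamp1 and Lamp2, and Lrp2 (megalin), an endocytic receptor of the apical thyrocyte membrane. The genes were chosen by name and not by their measured values, though with earlier results of these data known. A probe was taken where its RefSeq accession belonged to one of these symbols. Lrp2 had 2 probes (A_44_P1047441 and A_64_P090558) and each other gene had 1. Gene expression was measured on 49 one-colour microarrays, each with Cy3-labelled RNA from the thyroid of 1 male Sprague Dawley rat. Rats injected intravenously with 131I were compared with untreated controls of the same age.

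The young rats were injected at 5 weeks of age. Those given 50 kBq were killed after 3, 6 or 9 months, at 4, 7 and 10 months of age, with 4 arrays at each time. Young rats given 0.5, 5 or 500 kBq were killed after 9 months, with 4, 3 and 4 arrays. The adult rats were injected with 50 kBq at 17 weeks of age and killed after 3, 6 or 9 months, at 7, 10 and 13 months of age, with 4 arrays at each time. The untreated controls were 4, 7, 10 and 13 months old, with 4, 3, 4 and 3 arrays. Each value is the log2 of the deposited signal minus the log2 of the 75th percentile of the array, so that a difference of 1 is a doubling of the relative signal. Levels of different probes are not on one scale and were not compared. The RNA came from thyroid tissue, not from sorted cells, and fewer cells of a type and less RNA per cell cannot be told apart.

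Thyrocytes store thyroglobulin in the follicle lumen and take it up by endocytosis, in part through megalin, which can also carry it across the cell. In endosomes and lysosomes the cysteine cathepsins, cathepsin D and legumain cleave it, with cathepsin B, L and K known to release thyroxine, and Lamp1 and Lamp2 line the lysosomal membrane. The same proteases serve other cells, and cathepsin S is known from macrophages and other antigen-presenting cells and cathepsin K from osteoclasts and fibroblasts.

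Many lysosomal genes carry the E-box letters CACGTG near their start, the core of the element bound by the transcription factors TFEB and TFE3. The upstream sequences of the 2 members that held CACGTG are shown for this reason. The RefSeq table of promoters for the assembly GRCr8 gave windows from 250 bases before to 50 bases after the gene start for 8 of the 9 members. The palindrome CACGTG was found in 1826 of 27457 such windows (6.65%) and in 2 of the 8 members, Ctsd and Lamp1. Lamp1 held 5 copies, which was the case for 1 window in the whole table, its own, and Ctsd held 2. The extended letters TCACGTG, read on both strands and overlapping the palindrome, stood in 3.43% of all windows and in the same 2 members. The 250 bases before the start are printed 5′ to 3′ on the strand of the gene, with CACGTG in capitals, for Ctsd (chr1:206968822-206969071, minus strand) and Lamp1 (chr16:83075064-83075313, minus strand).
Ctsd: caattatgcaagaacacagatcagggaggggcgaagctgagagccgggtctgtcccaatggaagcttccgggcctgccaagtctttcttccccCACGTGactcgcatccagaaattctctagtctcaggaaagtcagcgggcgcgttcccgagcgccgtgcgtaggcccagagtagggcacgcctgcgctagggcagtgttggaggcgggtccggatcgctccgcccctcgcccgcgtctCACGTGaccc
Lamp1: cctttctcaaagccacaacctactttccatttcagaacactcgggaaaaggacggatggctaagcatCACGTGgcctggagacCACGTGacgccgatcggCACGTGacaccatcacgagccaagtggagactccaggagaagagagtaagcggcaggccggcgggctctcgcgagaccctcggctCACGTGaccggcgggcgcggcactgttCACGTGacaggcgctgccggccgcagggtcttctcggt
The windows of Ctsl, Ctsk, Ctss, Lgmn, Lamp2 and Lrp2 did not hold these letters. The copies in Lamp1 began at positions -183, -167, -150, -65 and -38 from the start, and those in Ctsd at -157 and -10.

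In 46 of the 49 arrays all 10 follicular thyrocyte markers, among them Tg and Pax8, were well above background. Across these arrays 70.1% to 82.5% of spots were well above background and the 75th percentile of the signal lay between 1333 and 4172. Skeletal muscle markers were high in most of them (median 6.38 over the array means of 6 genes, range -3.37 to 6.91). The other 3 arrays stand apart. On the array labelled young, 50 kBq, 4 months, replicate 2, only 43.1% of spots were well above background and the 75th percentile was 61.0. The arrays labelled young, 50 kBq, 4 months, replicate 3 and control, 7 months, replicate 2 lacked most thyrocyte signal. Their Tg signals were 0.14 and -0.69, against 6.41 to 7.91 on the 46 arrays. The mean of the thyrocyte markers was -3.96 and -4.90 on these 2 arrays and 0.54 to 3.11 on the 46, and 7 of the 10 markers were still well above background on each. The parathyroid markers, at -6.18 and -5.99, and the C cell markers, at -4.91 and -4.50, also lay below the 46 arrays (lowest -4.81 and -0.39). Their skeletal muscle markers, at 7.69 and 7.57, lay above all 46, as did those of the array of low signal, at 7.84. The macrophage markers stayed within the 46. Why these arrays differ was not tested. The fits were therefore made with 49 arrays and with the 46. Without these 3, the young group at 4 months and the controls of 7 months held 2 arrays each.

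Lrp2 was the member whose signal differed most between arrays. The probe A_44_P1047441 gave -8.12 and -7.49 on the 2 arrays of much reduced thyrocyte signal and was not well above background on either. On the 46 arrays it ranged from -1.88 to 1.83, with a median of 0.02. The second probe gave -7.71 and -6.16 on the 2 arrays, and -2.06 to 1.09 on the 46. Ctsl was also below the range of the 46 arrays (3.65 to 4.80) on both, with 2.86 and 3.25, and on the array of low signal, with 2.39. Lamp2 lay below the 46 (-1.35 to 0.49) on the 2 arrays of the young group, at -2.61 and -2.25, the former not well above background, and within them on the control array, at -0.86. Ctsd ran the other way on the 2 arrays of much reduced thyrocyte signal, with 5.71 in the rat of the young group and 5.82 in the control. The latter was higher than on any of the 46 (3.87 to 5.76). Ctsb was below the median of the 46 arrays on both, by -0.22 and -0.93, whereas Ctsk and Ctss were above their medians in the rat of the young group and below them in the control. In the rat of the young group the signals of Ctsb, Ctsk and Ctss were 5.50, -0.20 and 0.45. In the control they were 4.78, -2.21 and -1.49, all below the 46 arrays, where Ctsb ranged from 5.07 to 6.77, Ctsk from -1.73 to -0.21 and Ctss from -1.02 to 1.33. Lamp1, at 2.82 and 3.08, and Lgmn, at 0.61 and 0.01, stayed within the 46 arrays. On the array of low signal Lgmn was at -1.12, below all of them.

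**Figure D1:**
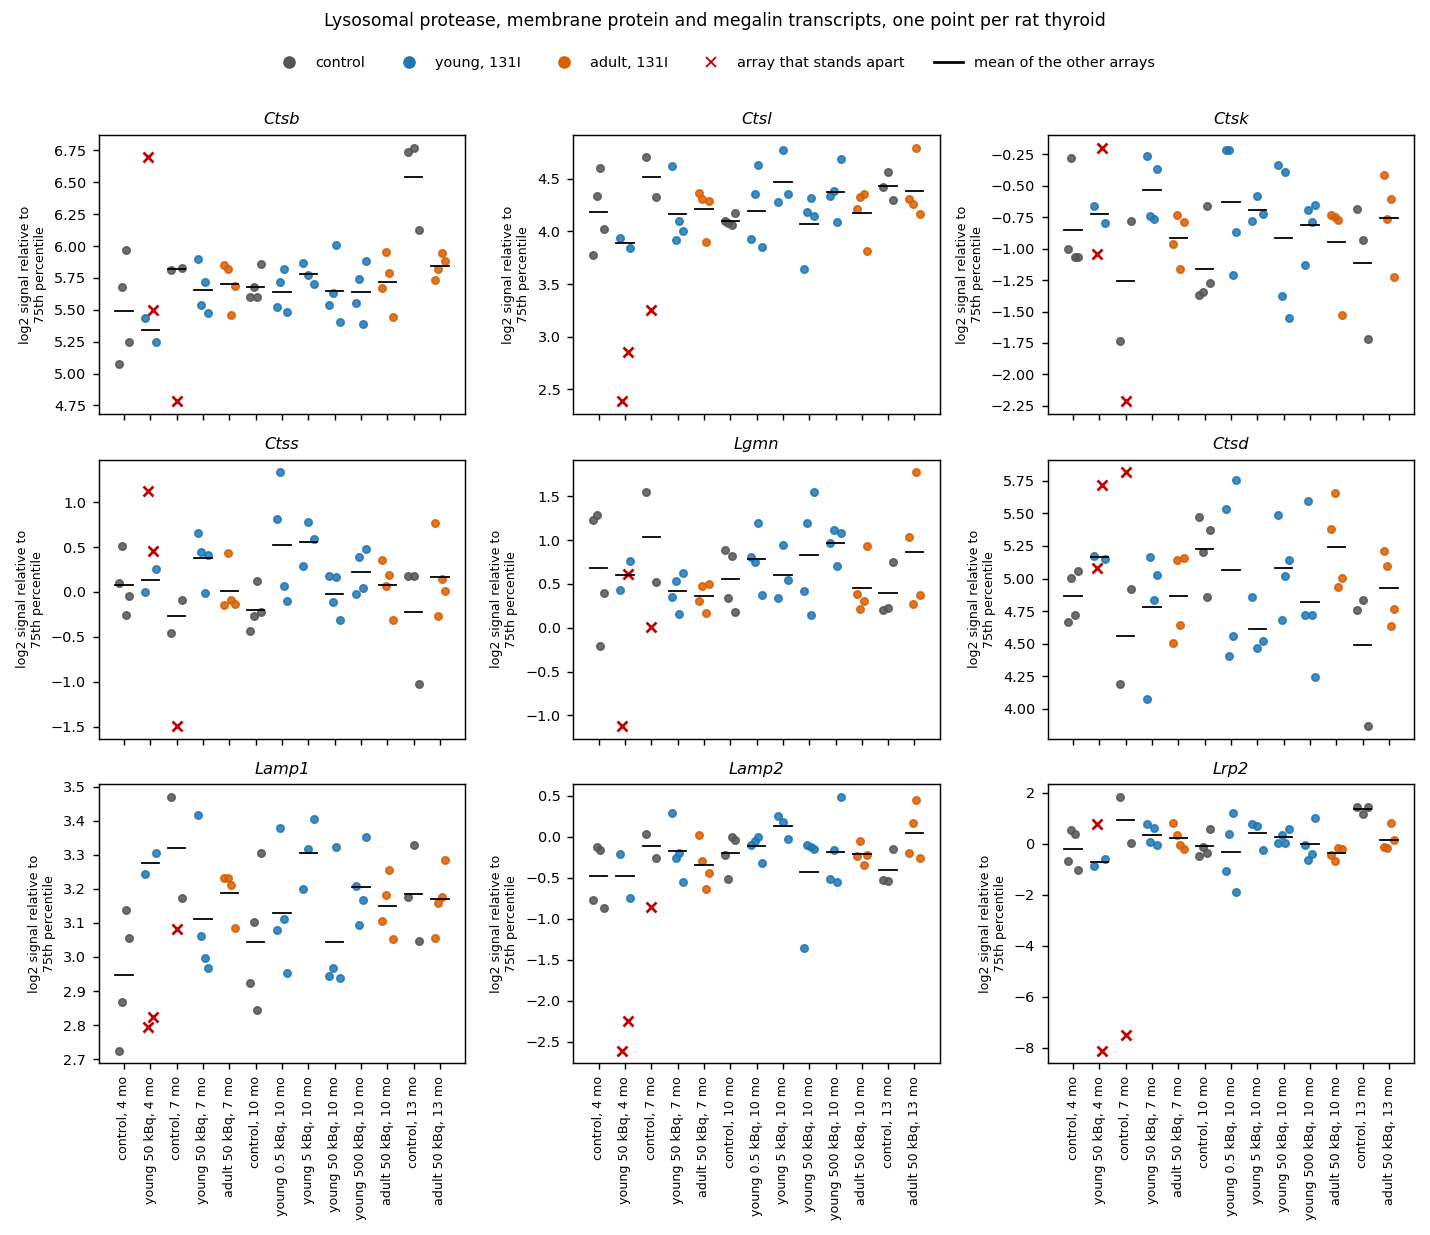
Log2 signal of the 9 genes (main probe of Lrp2) relative to the 75th percentile of each array, with 1 point per rat thyroid, groups ordered by age and a line at the mean of the 46 arrays; red crosses mark the 3 arrays that stand apart. Lrp2 falls to -8.12 and -7.49 on 2 of these, and Ctsb is highest in the 13-month controls apart from 1 cross.

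On the 46 arrays the order of the 13 group means was mostly within the spread between rats. For 9 of the 10 probes the ranges of all 12 neighbouring pairs of groups overlapped. For Ctsb 11 of 12 overlapped, and the exception was the step to the highest group, the 13-month controls. Lamp1 was the steadiest member, with a range of 0.745 over the 46 arrays and a pooled within-group SD of 0.153. The pooled SD was 0.222 for Ctsb, 0.268 for Ctsl, 0.339 for Lamp2, 0.375 for Ctss, 0.391 for Ctsk, 0.410 for Ctsd and 0.446 for Lgmn. It was largest for Lrp2, at 0.662 and 0.605 for the 2 probes.

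Among the members, 1 passed the cut-offs in an exposure comparison, and only over 46 arrays: Ctsb, a cysteine protease of thyroglobulin breakdown, in the oldest rats. The signals in the 13-month controls were 6.73, 6.77 and 6.13. The adult rats of the same age, killed 9 months after 50 kBq, gave 5.74, 5.82, 5.94 and 5.88. All 4 exposed rats lay below all 3 controls. The exposed rats, with a mean of 5.85 ± 0.09 (SD, n = 4), were within the span of the other groups, whereas the controls, with 6.55 ± 0.36 (SD, n = 3), were above the other 43 of the 46 arrays. The difference was -0.70 (SE 0.25), or 1.62-fold lower in exposed rats, with an adjusted p of 0.0861 in limma over 49 arrays. Over 46 arrays the SE was 0.17 and the adjusted p 0.00426, past the cut-offs of an adjusted p under 0.01 and a fold change over 1.5. The exact permutation test gave a two-sided p of 0.0286, the smallest that 4 arrays against 3 can give. Ctsb was the 1 of 10 member probes called over 46 arrays in this comparison, in which 8.99% of all probes were called over 46 arrays and 0.558% over 49. The arrays of these 2 groups did not overlap for 26.1% of all probes and for 3 of the 10 member probes, those of Ctsb and Lrp2. On the scan date that held arrays of both groups, 2 against 2, Ctsb differed by -0.59. The median of all probes was itself at -0.14, and Ctsb at -0.56 relative to it.

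The same controls of 13 months, which both comparisons share, were also set against those of 4 months, whose Ctsb signals were 5.07, 5.67, 5.97 and 5.25. Each of the 3 older rats lay above all 4 younger ones, as was the case for 21.5% of all probes and for 3 of the 10 member probes, with 34.3% of all probes without overlap in either direction. The exact two-sided permutation p was 0.0571, where 0.0286 is the smallest possible. The difference of 1.05 (SE 0.25), or 2.08-fold, passed the cut-offs with an adjusted p of 0.00505 in limma over 49 arrays and 4.05e-05 over 46. In that comparison 5.15% of all probes were called over 49 arrays and 22.0% over 46, and 1 and 2 of the 10 member probes. The median of all probes was itself shifted, by 0.19, so that Ctsb rose by 0.86 relative to it. Within each of the scan dates that held both ages, the difference was 1.06 and 1.16. Ctsb lost the call when 1 of the arrays of 4 months (replicate 1 or 4) or of 13 months (replicate 1 or 2) was left out, with differences of 0.91, 0.97, 0.96 and 0.94. Quantile normalization gave 1.03 with an adjusted p of 0.0251, so that the call was lost there too. It was not called in the controls of 7 months (difference from 4 months -0.02 over 49 arrays and 0.33 over 46) or of 10 months (0.19), where 0.00396% and 0.0119% of all probes were called over 49 arrays and 0.0278% and 0.0119% over 46.

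Lrp2, the receptor, showed the same order in the oldest rats. The main probe gave 1.44, 1.15 and 1.45 in the 13-month controls, and -0.13, -0.18, 0.82 and 0.13 in the exposed rats of the same age. No exposed array reached the controls. The second probe gave 1.08, 1.03 and 0.63 against -0.88, -0.86, 0.10 and -0.39. The differences were -1.19 (SE 0.49) and -1.42 (SE 0.45) over 46 arrays, with adjusted p of 0.0798 and 0.0222 in limma, and neither passed the cut-off of 0.01. The exact two-sided permutation p was 0.0571 for the main probe and 0.0286 for the second. Over 49 arrays the SEs were 1.30 and 1.09. From 4 to 13 months in the controls the second probe was higher by 1.80 (SE 0.45, adjusted p = 0.00237 in limma over 46 arrays) and passed the cut-offs. The main probe was higher by 1.55 (SE 0.49, adjusted p = 0.0131) and did not. The exact two-sided permutation p was 0.0571 for the main probe and 0.0286 for the second. Over 49 arrays neither passed. The correlation between the 2 probes was r = 0.97 over the 46 arrays.

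The largest differences of Lrp2 between exposed rats and controls over 49 arrays lay at 7 and 4 months and rested on the arrays that stand apart. At 7 months the main probe gave 1.83, -7.49 and 0.03 in the controls, 0.77, 0.07, 0.62 and -0.06 in the young rats, and 0.80, 0.32, -0.05 and -0.23 in the adult rats. Both exposed groups overlapped with the controls. The difference in the young rats was 2.23 (SE 1.30, adjusted p = 0.817 in limma) over 49 arrays and -0.58 (SE 0.56, adjusted p = 0.717) over 46. In the adult rats, compared with the same controls, it was 2.09 (SE 1.30, adjusted p = 0.997) and -0.72 (SE 0.56, adjusted p = 0.732). The sign thus turned in both when the 1 control array of reduced thyrocyte signal was left out. The second probe turned likewise, from 1.48 to -0.65 in the young and from 1.41 to -0.72 in the adult rats. In the young rats at 4 months the main probe gave -0.88, 0.77, -8.12 and -0.59, against -0.68, 0.55, 0.36 and -1.03 in the controls. That difference was -2.002 (SE 1.20, adjusted p = 0.211 in limma) over 49 arrays and -0.53 (SE 0.56, adjusted p = 0.698) over 46. Between the controls of 7 and 4 months it was -1.68 over 49 arrays and 1.13 over 46.

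Markers of other cells and the array signal differed between the same groups. The mean of the thyrocyte markers was 2.80 to 3.11 in the 13-month controls and 1.66 to 2.36 in the exposed rats of that age, and 0.54 to 2.85 in the other groups. The mean of 6 skeletal muscle markers was 2.59 to 3.51 in these controls, against 6.35 as the median of the exposed rats, in which 1 rat was at -3.37. The 75th percentile of the signal was 1333 to 1441 in these controls, lower than in any other of the 46 arrays. The part of tissue composition and of array signal in the differences of Ctsb and Lrp2 was not tested.

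Across the 46 arrays Lrp2 and Ctsb followed the thyrocyte markers. Pearson's r with the mean of the 10 markers was 0.826 for Lrp2 (Spearman's rho 0.803) and 0.792 for Ctsb (rho 0.828). Without the 2 arrays farthest from the median marker level the values of r were 0.806 and 0.780. Ctsl followed them with r = 0.690, Lamp1 with 0.589 and Lamp2 with 0.402. For Ctsd r was -0.623. With the skeletal muscle markers the relation was inverse, with r = -0.560 for Lrp2 (rho -0.773) and -0.514 for Ctsb (rho -0.516). It was -0.541 for Ctsl, -0.346 for Lamp2 and -0.164 for Lamp1. These correlations describe arrays that share groups and scaling, and carry no test. The 3 genes most like Lrp2 over 49 arrays were Epcam, an epithelial adhesion molecule (r = 0.978), Rab19, a small GTPase (0.975), and Spint2, a protease inhibitor of epithelia (0.974). Over the 46 arrays r was 0.882, 0.872 and 0.927. Those most like Ctsb were Gnai2, a G protein subunit (r = 0.948 over 49 arrays and 0.927 over 46), Fkbp2, an endoplasmic reticulum prolyl isomerase (0.939 and 0.933), and Vkorc1, the vitamin K epoxide reductase (0.933 and 0.922).

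**Figure D2:**
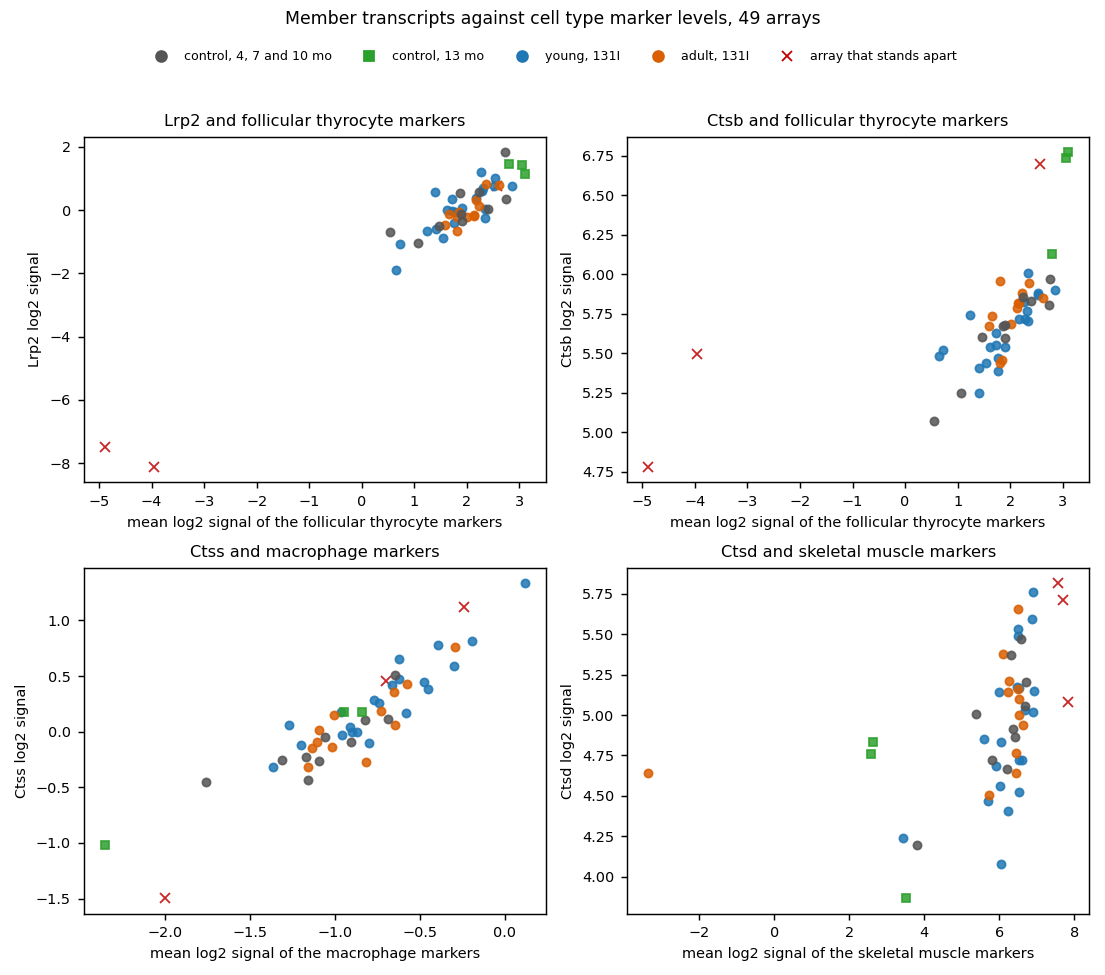
Log2 signal of Lrp2, Ctsb, Ctss and Ctsd (y axes) against the mean log2 signal of 10 thyrocyte, 12 macrophage or 6 skeletal muscle markers (x axes), with 1 point per array and colours for group. Lrp2 and Ctsb rise with the thyrocyte markers and Ctss with the macrophage markers, and the 13-month controls (green squares) lie at the top of the thyrocyte scale.

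Ctss and Ctsk, proteases known from immune and connective tissue cells, had the lowest unadjusted p-values among the members for the mean of the 9 exposure effects. The signals of Ctss in the 7-month controls were -0.45, -1.49 and -0.09, of which -1.49 came from the array of reduced thyrocyte signal. The young rats of that age, given 50 kBq, gave 0.65, 0.44, -0.01 and 0.41. The 4 exposed arrays lay above the 3 controls, with and without that array. All 4 were scanned on 1 date, on which none of the 3 controls was scanned, so exposure and scan date cannot be told apart in this comparison, for Ctsk as for Ctss. The difference was 1.06 (SE 0.32, adjusted p = 0.471 in limma) over 49 arrays and 0.65 (SE 0.32, adjusted p = 0.475) over 46. The adult rats at 7 months were compared with the same controls, and there Ctss differed by 0.69 and Ctsk by 0.66 over 49 arrays, and by 0.29 and 0.35 over 46. On the scan date that held arrays of both groups, 2 against 2, the differences were 0.42 and 0.41. For the young rats, Ctsk gave -1.73, -2.21 and -0.78 in the controls and -0.27, -0.74, -0.77 and -0.37 in the exposed rats, again without overlap. For both genes the exact two-sided permutation p was 0.0286 with all arrays and 0.0667 without the array that stands apart, each the smallest possible. The difference of Ctsk was 1.04 (SE 0.31) over 49 arrays and 0.72 (SE 0.34) over 46, with adjusted p of 0.471 and 0.450 in limma. The arrays of these groups did not overlap for 7.83% of all probes with all arrays and for 18.5% without the array that stands apart. At 5 kBq and 10 months, Ctss gave 0.29, 0.78 and 0.59 against -0.44, -0.27, 0.12 and -0.23 in the controls (difference 0.76, exact two-sided permutation p = 0.0286, adjusted p = 1 in limma over 49 arrays). Within each of the scan dates that held both groups the difference was 1.09 and 0.47, with 1 exposed array each. The arrays did not overlap for 15.4% of all probes in that comparison.

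The mean of the 9 exposure effects, in which several comparisons share control arrays, was 0.54 (SE 0.15) for Ctss and 0.45 (SE 0.15) for Ctsk over 49 arrays. The unadjusted p was 0.000887 and 0.00414, and the adjusted p 0.922 and 1 in limma, so that neither passed. Over 46 arrays the means were 0.42 (SE 0.14) and 0.37 (SE 0.15), with adjusted p of 0.424 and 0.470. For the other 8 probes the mean effect over 46 arrays lay between -0.30 and 0.07. In this comparison 0.0% of all probes were called with either set of arrays. The single effects on Ctss ran from 0.05 (young, 50 kBq, 4 months) to 0.76 (young, 5 kBq) over 46 arrays, and those on Ctsk from 0.13 to 0.72 in the young rats at 50 kBq at 4 and 7 months. At 10 months the effects differed by scan date. On the date with 3 of the control arrays, Ctsk was higher in the exposed groups by 0.38 to 0.78 and Ctss by 0.24 to 1.09. On the date with 1 control array, Ctsk was lower in each exposed group, with differences of -0.48 to -0.03. Those of Ctss on that date ran from -0.24 to 0.47.

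The macrophage markers varied with both genes. Over the 46 arrays r with the mean of 12 macrophage markers was 0.909 for Ctss (rho 0.876) and 0.821 for Ctsk (rho 0.823), and 0.868 and 0.800 without the 2 farthest arrays. With the 6 fibroblast markers it was 0.531 and 0.730. The mean of the macrophage markers was -1.76 and -0.91 in the 2 remaining 7-month controls, -0.90 to -0.48 in the young rats exposed to 50 kBq at that age, and -1.998 on the control array of reduced thyrocyte signal. The mean of the fibroblast markers was 0.83 and 2.15 in these 2 controls, 2.02 to 2.57 in the exposed rats and 0.59 on that control array. The part of these cells in the differences of Ctss and Ctsk was not tested. The genes most like Ctss over 49 arrays were Myo1f, a myosin of leucocytes (r = 0.878), Fcgr2al1, an Fc receptor gene (0.876), and Arhgap9 (0.869). Those most like Ctsk were Pdgfra, the platelet-derived growth factor receptor alpha (0.928), Lhfpl6 (0.911) and Itgbl1 (0.910). Over the 46 arrays these values were 0.856, 0.860 and 0.833 for Ctss and 0.907, 0.896 and 0.885 for Ctsk. Ctsk and Ctss lie close together on chromosome 2 in GRCr8, with 1 protein-coding gene model between them, and were the members most alike (r = 0.813 over 46 arrays).

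**Figure D3:**
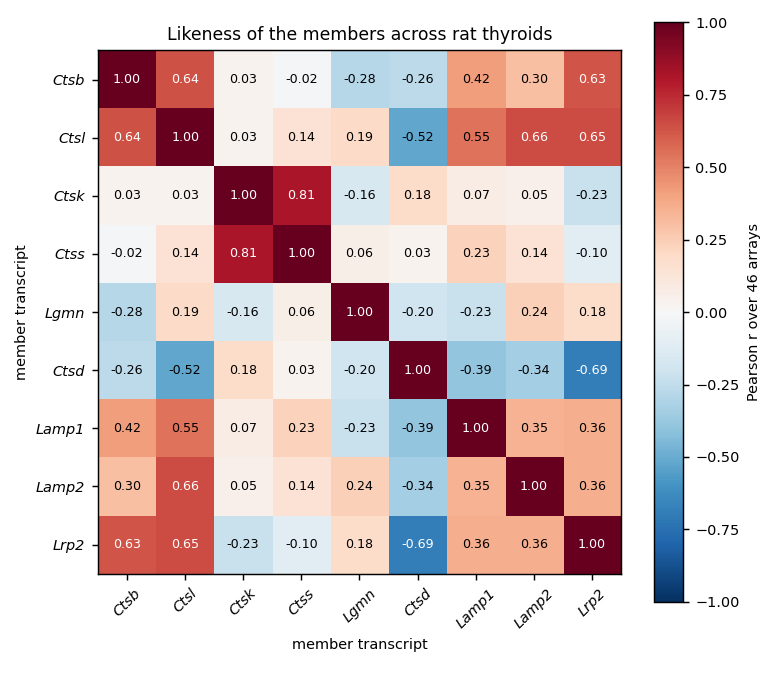
Pearson's r between the log2 signals of each pair of the 9 genes (main probe of Lrp2) over the 46 arrays, with red for positive and blue for negative values. Ctsk and Ctss form the pair most alike (0.81), Ctsb, Ctsl, Lamp1, Lamp2 and Lrp2 are positively related, and Ctsd is negatively related to them.

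For Ctsl, a cysteine protease, and Lamp2, a membrane protein, the comparison of young rats 3 months after 50 kBq with controls turned on the arrays that stand apart. Ctsl gave 3.94, 2.39, 2.86 and 3.84 in these rats and 3.78, 4.34, 4.60 and 4.03 in the controls of 4 months, so the groups overlapped. The 2 low values were those of the arrays that stand apart. The difference was -0.93 (SE 0.27, adjusted p = 0.0250 in limma) over 49 arrays and -0.29 (SE 0.23, adjusted p = 0.605) over 46. Lamp2 gave -0.21, -2.61, -2.25 and -0.74 against -0.77, -0.13, -0.16 and -0.86. Its difference was -0.97 (SE 0.33, adjusted p = 0.0403) over 49 arrays and 0.00 (SE 0.29, adjusted p = 0.998) over 46. Neither gene passed with 49 or 46 arrays. Both passed in limma when replicate 1 or 4 of the exposed rats was left out and the arrays that stand apart were kept, with differences of -1.16 and -1.12 for Ctsl and -1.39 and -1.21 for Lamp2. The exposed group then held 3 arrays, 2 of them those that stand apart, and many other probes were called too. Without replicate 1, 4489 of all probes were called over the exposure comparisons, the most with any 1 array left out. Over 49 arrays 0.0119% of all probes were called in the comparison at 4 months. In the other 8 exposure comparisons, over 46 arrays, Ctsl differed by -0.36 to 0.37 and Lamp2 by -0.24 to 0.45, and none passed. The highest of these for Ctsl was at 5 kBq, where the exposed rats gave 4.28, 4.78 and 4.36, above all controls with 4.10, 4.08, 4.06 and 4.18 (difference 0.37, SE 0.29, exact two-sided permutation p = 0.0286, adjusted p = 1 in limma over 49 arrays). At 5 kBq the arrays did not overlap for 15.4% of all probes, with 8.55% above the controls. The genes most like Ctsl over 49 arrays were Glmp, a lysosomal membrane glycoprotein (r = 0.923), Bin3 (0.922) and Adss2 (0.917), with r of 0.817, 0.780 and 0.792 over the 46. Those most like Lamp2 were Dcun1d4 (0.909), Rbm45 (0.898) and Asah1, the lysosomal acid ceramidase (0.886), with r of 0.740, 0.761 and 0.683.

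Ctsd, the aspartic protease, was negatively related to the members that followed the thyrocyte markers. Over the 46 arrays its r was -0.693 with Lrp2, -0.523 with Ctsl, -0.341 with Lamp2, -0.258 with Ctsb and -0.391 with Lamp1, the other gene with CACGTG in its promoter. With Ctsk and Ctss it was 0.18 and 0.03. In the young rats at 4 months Ctsd gave 5.18, 5.08, 5.71 and 5.15, above all 4 controls with 4.66, 5.00, 4.72 and 5.06. The difference of 0.42 (SE 0.31) had an adjusted p of 0.310 in limma over 49 arrays, and an exact two-sided permutation p of 0.0286, the smallest that 4 arrays against 4 can give. Arrays did not overlap for 5.41% of all probes there. The values 5.08 and 5.71 came from the 2 arrays that stand apart. Over 46 arrays the difference was 0.30 (SE 0.35), with 2 exposed arrays left, and the exact two-sided permutation p was 0.133, where 0.0667 is the smallest possible. At 5 kBq Ctsd gave 4.855, 4.469 and 4.521 against 5.473, 5.206, 4.862 and 5.375 in the controls (difference -0.61, SE 0.33, exact two-sided permutation p = 0.0571, adjusted p = 1 in limma), which did not overlap by a margin smaller than the spread between rats. In that comparison the arrays did not overlap for 15.4% of all probes, with 6.82% below the controls. With the skeletal muscle markers r of Ctsd was 0.393 over the 46 arrays (rho 0.566) and 0.558 without the 2 farthest arrays. The genes most like Ctsd over 49 arrays were the mitochondrial chaperone Trap1 (r = 0.908), Mcrip2 (0.888) and Ndufv1, a subunit of respiratory complex I (0.882), and r over the 46 was 0.901, 0.890 and 0.873.

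Lgmn, which cleaves after asparagine and also processes the cathepsins, and Lamp1 showed no difference that passed. Lgmn gave 1.55, 0.01 and 0.52 in the 7-month controls, and 0.31, 0.47, 0.17 and 0.49 in the adult rats of that age. The difference was -0.33 (SE 0.39) over 49 arrays and -0.68 (SE 0.38, adjusted p = 0.647 in limma) over 46, where only 2 controls remained. Over the 9 exposure comparisons with 46 arrays Lgmn differed by -0.68 to 0.47 and Lamp1 by -0.21 to 0.33. The largest effect on Lamp1, in the young rats at 4 months, had an SE of 0.14 and an adjusted p of 0.475 in limma. Over 49 arrays it was 0.09. The genes most like Lgmn over 49 arrays were Tfdp1 (r = 0.886), Acsl4 (0.851) and Dop1b (0.851), and those most like Lamp1 were Slc25a29 (0.751), Acy1 (0.737) and Gga2, an adaptor of lysosomal sorting (0.735). Over the 46 arrays the values were 0.870, 0.852 and 0.823 for Lgmn and 0.747, 0.725 and 0.700 for Lamp1.

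**Figure D4:**
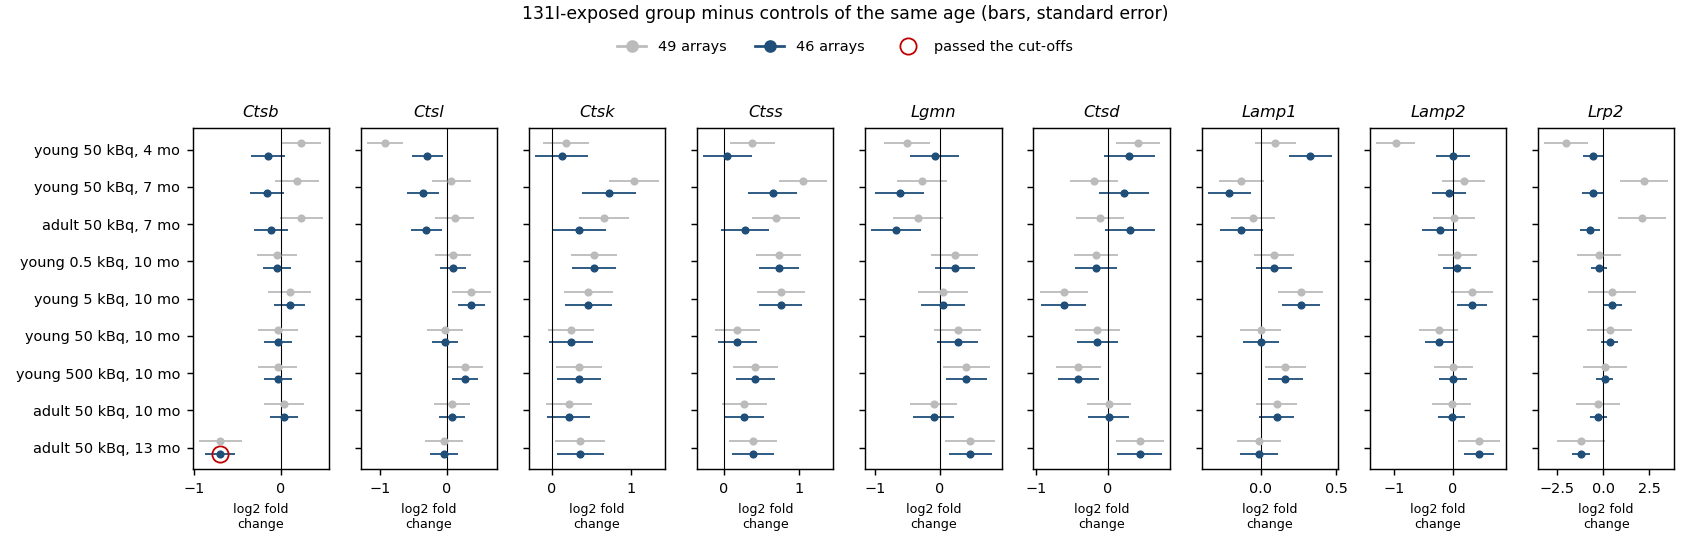
Log2 fold change with its standard error (x axes) of each member in the 9 comparisons of 131I-exposed rats with controls of the same age (y axis), over 49 arrays in grey and 46 in blue. The only effect past the cut-offs is that of Ctsb in adult rats at 13 months over 46 arrays (-0.70), and the arrays that stand apart widen the error bars of Lrp2 most.

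Taking all 9 exposure comparisons, 0 of 10 member probes were called over 49 arrays in limma, and 1 over 46. The share of all probes called over 49 arrays was 0.0% at 0.5 and 500 kBq, 0.0119% at 5 kBq, at 50 kBq in young rats at 10 months and at 4 months, 0.0% at 7 months in young and adult rats and in adult rats at 10 months, and 0.558% in adult rats at 13 months. Over 46 arrays these shares were the same at the 4 activities of 10 months and in adult rats of that age, 0.0% in young rats at 4 months, 0.0239% and 0.0358% in young and adult rats at 7 months and 8.99% in adult rats at 13 months. An unadjusted p under 0.05 was found for 9 of the 90 tests of member probes (10.0%) and for 8.64% of the tests of all probes. Over 46 arrays the shares were 8.89% and 9.60%. The median effect over the member probes in adult rats at 13 months was 0.17, beside -0.14 for all probes. It was largest in young rats at 5 kBq, at 0.35 beside -0.02. At 7 months it was 0.185 over 49 arrays and -0.186 over 46 in young rats, and 0.173 and -0.177 in adult rats. In the young rats at 4 months it was -0.21 beside 0.30 over 49 arrays, and -0.04 beside 0.02 over 46. The arrays of exposed rats and controls did not overlap for 0 of 10 member probes at 0.5, 50 and 500 kBq in young rats at 10 months, where this held for 1.06%, 3.99% and 2.92% of all probes, and for 0 in adult rats at 7 and 10 months (7.66% and 4.07%). At 5 kBq they did not overlap for 3 of the 10, Ctsl and Ctss above and Ctsd below the controls (15.4% of all probes). Without the array that stands apart, Lgmn was the 1 member probe without overlap in adult rats at 7 months (17.6% of all probes), and Ctsd and Lamp1 were the 2 in young rats at 4 months (17.1%). With activity, the 15 arrays of young rats at 9 months gave slopes of -0.15 (Ctss) to 0.09 (Lrp2) per unit of log10 activity, with SEs of 0.04 to 0.18, and neither any member nor any other probe (0.0%) was called.

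The difference between young and adult rats in the effect of 50 kBq was tested at 3, 6 and 9 months, and that between 9 and 3 months in each age class. No member passed, with 0.0% of all probes called over 49 arrays in each of these 5 tests. Over 46 arrays 0.00795%, 0.00795% and 2.25% of probes were called for young against adult at 3, 6 and 9 months, and 0.0% and 0.163% for 9 against 3 months in young and adult rats. The main probe of Lrp2 gave -4.09 at 3 months over 49 arrays and 0.18 over 46, so that the sign turned when the 3 arrays were left out. At 9 months Ctsb differed by 0.66 (SE 0.24, adjusted p = 0.0676 in limma over 46 arrays) and the second Lrp2 probe by 1.74 (SE 0.62, adjusted p = 0.0666), in both cases with a lower effect in adults, whose controls were those of 13 months.

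The wider pathway was followed in 8 lists with 106 genes, of which 94 were tested. Over 49 arrays 0 were called in the 9 exposure comparisons in limma, and 7 of 94 (7.45%) over 46, all in adult rats at 13 months, where 8.99% of all probes were called. Those lower in exposed rats than in controls were Atp6v0a1 (-0.63, adjusted p = 4.17e-05) and Atp6ap1 (-0.71, adjusted p = 0.000229), which belong to the proton pump that acidifies lysosomes, Slc17a5, the sialic acid exporter (-1.14, adjusted p = 0.00658), and Rab5a, a GTPase of early endosomes (-0.59, adjusted p = 0.00359). Those higher were the membrane protein Laptm4a (0.66, adjusted p = 0.000246), the hormone transporter Slc16a10 (1.53, adjusted p = 0.00622) and the sorting receptor Sort1 (0.63, adjusted p = 0.00904).

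Between the controls of 13 and 4 months 4 of 94 list genes (4.26%) were called over 49 arrays, beside 5.15% of all probes. Higher in the older rats were Slc17a5 (1.44, adjusted p = 0.00711), Gnptg, a subunit of the enzyme that makes the mannose 6-phosphate tag (1.00, adjusted p = 0.00694), and Atp6ap1 (0.82, adjusted p = 0.00504), and lower was Slc16a10 (-1.62, adjusted p = 0.00777). Over 46 arrays 15 of 94 (16.0%) were called, 13 of them higher, beside 22.0% of all probes. Among the enzymes of sugar chains these included Galns (0.77) and Arsb (1.27), and among the membrane and lumen proteins Npc2, a cholesterol carrier (1.38). Duox2 (1.68) and Duoxa2 (1.53), which make the hydrogen peroxide for iodination, Rab5a (0.60) and Atp6v0a1 (0.66) were also higher, and the inhibitor Serpinb1a was lower (-2.38). For the 13 tested genes of the other lysosomal proteases none was called in any comparison. Their lowest p among the exposure comparisons was that of Ctsf in adult rats at 7 months (-0.50, SE 0.16, adjusted p = 0.997 in limma over 49 arrays). Over 46 arrays it was that of Ctse in adult rats at 13 months (0.89, SE 0.30, adjusted p = 0.0315). The median of that list between 13 and 4 months was 0.23, beside 0.19 for all probes.

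Lists without a call in the 49 arrays are represented by their gene of lowest p among the exposure comparisons. Gaa, the acid alpha-glucosidase, was at 1.47 (adjusted p = 0.0220) in young rats at 4 months over 49 arrays and at 0.71 (adjusted p = 0.474) over 46. Cst7, a cystatin, was at 1.27 (adjusted p = 0.0361) and 0.30 (adjusted p = 0.749) in the same comparison. Slc5a5, the iodide transporter, was at 2.87 (adjusted p = 0.997) in adult rats at 7 months over 49 arrays and at -0.18 (adjusted p = 0.941) over 46. In limma none of these 3 passed, and each value moved with the arrays that stand apart. Laptm4a, Atp6v0a1 and Atp6ap1 were called over 46 arrays in the difference between young and adult rats at 9 months, at -0.85, 0.74 and 0.79 (adjusted p of 0.00233, 0.00163 and 0.00547 in limma).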

How the data were processed

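The authors extracted total RNA from flash-frozen thyroid tissue and hybridised it to Agilent Sureprint G3 Rat GE 8x60K arrays (1 rat each). They deposited 1 file per array from Agilent Feature Extraction 10.7.3.1, whose processed signal is an intensity per spot, background-subtracted and not scaled between arrays. The deposited files also hold other marks per spot (0 or 1) for signals well above background and for outliers. A further deposited list holds the authors' own fold changes for selected probes and was not used. Partek is named in the submitters' processing notes, and the methods name Nexus Expression for differential transcripts, with the same cut-offs as used here. The normalization between arrays is not given in the sources used here.

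Control and outlier spots were left out, log2 of the signal minus the log2 75th percentile of each array was taken, and spots of a probe were averaged. Of 30367 probes, 17998 were given a symbol through RefSeq accessions (GRCr8). Probes well above background on at least 3 arrays entered a linear model with 1 mean per group (limma 3.58.1 under R 4.3.3), which left 25284 probes, and 23116 for the trend. The prior degrees of freedom were 2.22. A call needed a Benjamini-Hochberg adjusted p under 0.01 and a fold change over 1.5. Single probes were also compared by exact two-sided permutation tests. The scripts were tested on simulated data. Python 3.11.15, pandas 2.3.3, numpy 2.4.6 and matplotlib 3.10.9 were used for the other steps.

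The members, the pathway lists and the marker lists were chosen with earlier results of these data known. Named besides the members were at most 3 called genes per list and comparison, the gene of lowest p for lists without a call, and the 3 genes of highest r with each member over 49 arrays. Where a gene had several probes, that with the highest mean was used. A few genes of these lists are counted but not reported by name here.

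Alternatives were quantile normalization, the array median, normexp background correction (offset 50, on median signals), no or a stricter filter on dim probes, scan date (3), slide (8) or replicate number as a block, array weights, an adjusted p under 0.05, smaller sets of arrays and each array left out. Leaving out the 3 arrays that stand apart, alone or with the 13-month controls, and within-date differences were chosen after seeing the data. Replicate numbers were taken to name rats and not to pair them. Deviations from the group means correlated at a median of -0.026 for arrays of the same number (279 pairs, lowest -0.702) and 0.0122 for other numbers (828 pairs). Such medians cannot show that no arrays were paired. The number of arrays limits the precision, and p-values measure the spread between rats.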

Additional observations from a re-analysis of the deposited data

Results flagged for a closer look

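Among 100 groups of 4 arrays (10 probes in 10 groups), 10 held an array whose gap to the nearest of the others exceeded Dixon's critical value of 0.829 for the share of the group's range. Chance gives about 5% of groups. Of these arrays, 2 were among the 3 that stand apart. Ctsb was at 6.70 on the young, 50 kBq, 4 months array of low signal (replicate 2), high for its group, and Ctsd at 5.71 on replicate 3 of that group, of reduced thyrocyte signal, also high.

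Ctsk was low on replicate 4 of the adult rats at 10 months, at -1.53, and high on replicate 2 of the 4-month controls, at -0.28, and on replicate 3 of the 10-month controls, at -0.66. In the adult rats at 7 months Ctsl was low on replicate 3, at 3.90, Ctss high on replicate 2, at 0.43, and Lamp1 low on replicate 4, at 3.08. In the young rats given 50 kBq, at 10 months, Lamp1 was high on replicate 3, at 3.32, and Lamp2 low on replicate 1, at -1.35.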

How the results depend on the processing

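The exposure comparisons called 0 member probes and 150 of all probes over 49 arrays. Without the 3 arrays that stand apart, a setting chosen after seeing the data, these were 1 and 2282, with array weights 2 and 8825, and at an adjusted p under 0.05 with no fold cut-off 2 and 5745. All probes called were 21 with the array median, 22 with normexp, 20 without the filter on dim probes, 12 with the scan date and 322 with the slide as a block, and 4 with each group fitted with its controls alone. Age among the controls called 1 member probe and 1306 of all probes. These were 2 and 5544 without the 3 arrays, 2 and 9154 with array weights, and 0 members with quantile normalization. All probes were 500 with normexp, 2380 with the scan date, 3252 with the slide and 4800 at the looser cut-off. Young against adult called 0, with 571 of all probes without the 3 arrays, 2 with quantile normalization, 2 members and 6106 with array weights, and 14 at the looser cut-off. The comparison of 9 with 3 months called 0, with 41 without the 3 arrays, 2 members and 5827 with array weights, and 90 at the looser cut-off. The mean of the exposure effects called 0, with 27 with array weights and 3 at the looser cut-off. The 4 comparisons of young rats at 9 months called 6 probes, and 0 with their 19 arrays alone.

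With the replicate number as a block, though it was not taken to pair the rats, 15 probes were called for exposure and 788 for age. Ctsb gave -0.66 (adjusted p = 0.128 in limma) in adult rats at 13 months and 1.02 (adjusted p = 0.00954) between the controls of 13 and 4 months, and no call of a member changed.

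Leaving out 1 array gave 0 to 2 member probes and 6 to 4489 of all probes for exposure, 0 to 1 and 15 to 4036 for age, 0 to 269 of all probes for young against adult, 0 to 34 for 9 against 3 months and 0 to 3 for the mean. The count for exposure was 4489, 1142, 292 and 3994 without replicates 1 to 4 of the young rats at 4 months, 6, 6, 899 and 19 without those of the adult rats at 13 months, and 6, 6 and 316 without those of their controls. It was 233 and 259 without replicates 1 and 2 of the 7-month controls, 99 without replicate 4 of the young rats at 50 kBq and 260 without that at 500 kBq, at 10 months. For age it was 75, 2084 and 101 without replicates 1, 3 and 4 of the 4-month controls, 15 and 26 without replicates 1 and 2 of the 13-month controls, 2099 without replicate 2 of the 7-month controls and 4036 without replicate 2 of the young rats at 4 months. Ctsb in adult rats at 13 months ranged from -0.91 to -0.59.

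Without the 3 arrays the sign turned for 40 of the 190 differences of member probes, 14 of them among the 90 exposure comparisons, in young rats at 4 months (2) and in young and adult rats at 7 months (6 each). None of the 40 was called with either set of arrays. Among the 20 with an unadjusted p under 0.05 over 49 arrays, for which all settings were run, signs turned without the 3 arrays, with or without the 13-month controls, for Lamp2 in young rats at 4 months (0.0020) and, in young minus adult at 3 months, for Ctsl (0.013), Lamp2 (0.22) and Lrp2 (0.18 and 0.19). Of the other values of these 20, and of Lrp2 with the mean of its probes, 221 kept direction and call under the other settings and 972 when 1 array was left out. The causes were not tested.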
